A study of Schmidtea mediterranea with 24 samples.

Results

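SMESG000003402.1 is a planarian gene whose predicted protein is a cytochrome P450, and it is 1 of 22197 genes with a deposited level. The gene was chosen by its measured values, because its transcript was higher than control in *hox1* RNAi and lower than control in *lox5b* RNAi. RNA-seq was performed on whole asexual adults of *Schmidtea mediterranea*, strain CIW4, a flatworm that reproduces by tearing off its tail (fission). Animals were fed double-stranded RNA 7 times, which lowers the matching transcript (RNA interference, RNAi), and were starved for 5 days before freezing. There were 6 groups of 4 libraries. In 5 groups a single Hox gene was silenced, *hox1*, *hox3a*, *hox3b*, *lox5b* or *post2b*, and the control group was fed dsRNA of *unc-22*, a nematode muscle gene. Hox genes encode transcription factors that assign positions along the body axis. Each library pooled 3 animals, so the spread between libraries is a spread between pools, and nothing in the sources used here says whether pools came from separate feedings. No table used here links the silenced Hox transcripts to IDs of this kind, and the degree of silencing was not analysed here. In whole-animal RNA, fewer cells of a type and less RNA per cell cannot be told apart.

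Cytochrome P450 enzymes are haem proteins that use oxygen and electrons from a reductase to oxidize small, mostly fat-soluble molecules. In animals most are anchored in the endoplasmic reticulum membrane, and different families act on fatty acids, steroids or foreign compounds. The gene model of SMESG000003402.1 is described as Cytochrome P450 2U1, whose human counterpart hydroxylates long-chain fatty acids. The closest protein differed between databases. It was Cytochrome P450 2J6 in Swiss-Prot and in mouse, the 2J2 member of the same family in human, which converts arachidonic acid to epoxides, and a 2J2-like protein of the fish *Oryzias latipes* in a general protein collection. In *Drosophila melanogaster* it was Cytochrome P450-18a1, an enzyme that inactivates the moulting hormone, and in *Caenorhabditis elegans* it was CYP-14A1. The names share the P450 family but not a subfamily, so the transcript is called the P450 transcript here. No other P450 was named in the part of the product table used here, and the function of this enzyme in planarians is not given there.

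Levels are given as TPM, in which reads are divided by transcript length and every library is scaled to a sum of 1000000. The P450 transcript was measured in all 24 libraries, at a mean of 66.2 TPM. It was more abundant than 87.4% of all genes in control RNAi, 94.4% in *hox1* RNAi and 73.7% in *lox5b* RNAi, each by the group mean. TPM values of a gene stand in whole-number proportion to its reads once the size of 1 read in each library is known. For the P450 transcript the smallest such whole numbers were 133 to 1873 reads per library, each within 1e-06 of a whole number. By the same calculation the libraries held at least 7119578 to 12067179 reads in genes. The reads are known up to a common factor, so counting error alone was at most 2.31 to 8.67% of the level, depending on the library, with the fewest reads in *lox5b* replicates 1 and 2.

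In control RNAi the P450 transcript had 78.1, 54.9, 34.4 and 60.7 TPM in replicates 1 to 4, with a mean of 57.0 ± 18.01 TPM (SD, n = 4). The highest control library was 2.27 times the lowest. In *hox1* RNAi it had 154.5, 120.1, 129.1 and 115.0 TPM, with a mean of 129.7 ± 17.5 TPM (SD, n = 4). The lowest *hox1* library lay above all 20 libraries of the other groups, and was 1.25 times the highest of these, *hox3a* replicate 1. In *lox5b* RNAi it had 18.8, 16.4, 25.2 and 31.2 TPM, with a mean of 22.9 ± 6.66 TPM (SD, n = 4). All *lox5b* libraries lay below all other libraries, but the gap was narrow on the control side, where the lowest control library was 1.10 times the highest *lox5b* library.

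The other Hox RNAi groups lay in the range around control. In *hox3a* RNAi the P450 transcript had 91.9, 45.9, 55.0 and 78.0 TPM, with a mean of 67.7 ± 21.04 TPM (SD, n = 4). In *post2b* RNAi it had 88.4, 49.0, 48.3 and 61.1 TPM, with a mean of 61.7 ± 18.8 TPM (SD, n = 4). In *hox3b* RNAi it had 62.6, 61.1, 51.6 and 56.3 TPM, with a mean of 57.9 ± 5.00 TPM (SD, n = 4), and this group was the least spread. The order of the means was *hox1*, *hox3a*, *post2b*, *hox3b*, control and *lox5b*. The neighbours from *hox3a* down to control overlapped in their libraries, whereas *hox1* and *lox5b* RNAi overlapped with no group.

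**Figure D1:**
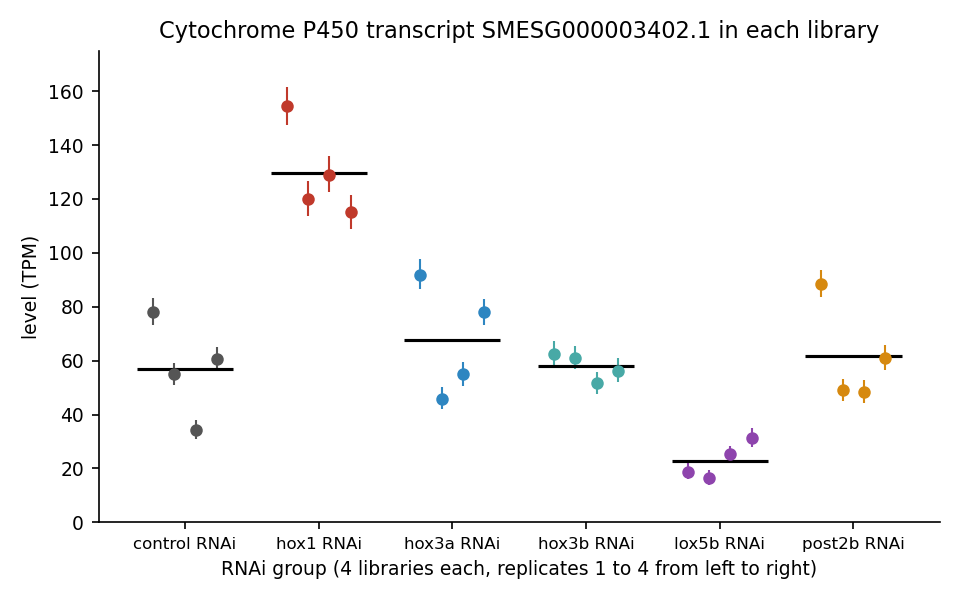
Level of the P450 transcript in TPM (vertical axis) in each of the 4 libraries of the 6 RNAi groups (horizontal axis). Points are libraries, vertical bars are 95% Poisson intervals of the recovered reads, which cover counting error only, and horizontal lines are group means. The 4 *hox1* libraries lie at 115.0 TPM or higher and the 4 *lox5b* libraries at 31.2 TPM or lower, with all other libraries between 34.4 and 91.9 TPM.

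The comparisons asked whether each Hox gene silenced alone changed the level of the P450 transcript, and whether the groups differed from each other. On the log2(TPM + 0.5) scale the level in *hox1* RNAi was 1.23 higher than in control RNAi (standard error 0.23), a ratio of 2.34. In *lox5b* RNAi the difference from control was -1.28 (standard error 0.23), so that control was 2.43 times *lox5b* RNAi. Set against each other, *hox1* and *lox5b* RNAi differed by 2.51 (standard error 0.23), a ratio of 5.70, and this contrast needs no control library. These values chose the gene and are given as a description, with no test. Of the 15829 genes that passed the filter on low values, 0.278% were called higher in *hox1* RNAi than in control, at 1.5-fold and an adjusted p under 0.05, and 1.58% were called lower. In *lox5b* RNAi, 0.259% were called higher and 3.92% lower, at 2-fold and an adjusted p under 0.01. Between *hox1* and *lox5b* RNAi directly, 5.26% were called higher and 1.09% lower, at the first cutoff. By the size of the log2 difference the P450 transcript ranked 1 upwards in *hox1* RNAi against control, 296 downwards in *lox5b* RNAi against control, and 7 upwards in *hox1* against *lox5b* RNAi.

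TPM are relative to the sum of a library, and the median log2 difference of all genes tested was -0.06 in *hox1* RNAi and -0.15 in *lox5b* RNAi against control. Relative to these medians the P450 transcript was 1.29 higher in *hox1* RNAi, and the difference in *lox5b* RNAi was -1.13. After TPM were rescaled by the median of ratios between libraries, the level was 125.3 ± 13.9 in *hox1* RNAi, 52.8 ± 15.9 in control RNAi and 23.6 ± 6.51 in *lox5b* RNAi (SD, n = 4). The highest rescaled *lox5b* library reached 31.8 and the lowest rescaled control library 32.7, so these groups were nearly touching on this scale. The spread between replicates was 0.37 (SD within groups, log2 scale). Leaving out 1 of 4 libraries could not move a difference by more than this. The shifts therefore say nothing about stability. The *hox1* difference from control was 1.01 to 1.40 and the *lox5b* difference from control -1.50 to -1.11 when each library was left out in turn.

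**Figure D2:**
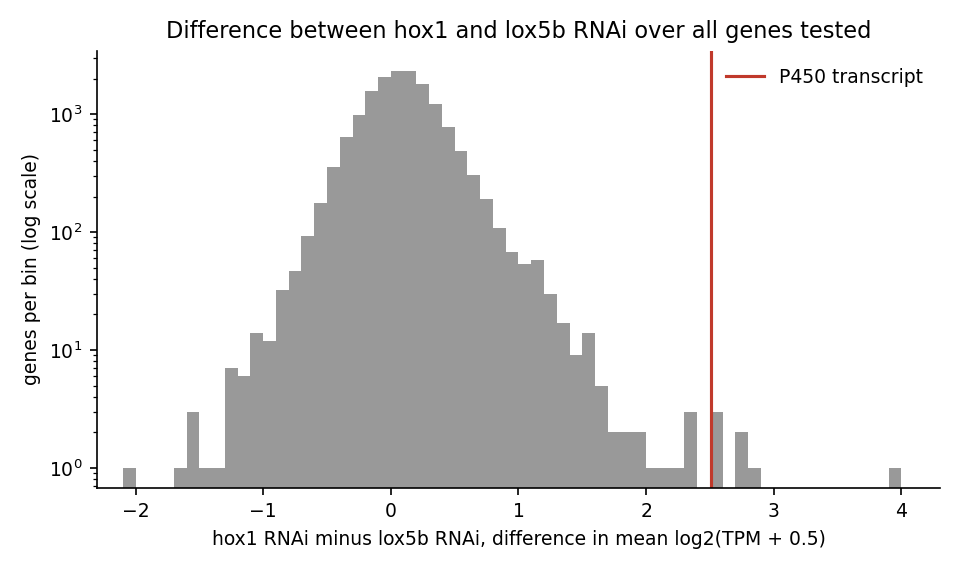
Number of genes (vertical axis, log scale) by the difference in mean log2(TPM + 0.5) between *hox1* and *lox5b* RNAi (horizontal axis, bins of 0.1) for the 15829 genes tested. The red line marks the P450 transcript at 2.51, far to the right of the median of all genes at 0.08.

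The contrasts between the remaining groups do not use *hox1* or *lox5b* libraries and were tested. Control libraries entered the values that chose the gene, so the contrasts with control are not fully separate from the choice. The P450 transcript was called in none of the 6 by limma with Benjamini-Hochberg adjustment, and its unadjusted limma p was 0.287 or higher in each. In *hox3a* RNAi the log2 difference from control was 0.25 (95% interval -0.23 to 0.73, adjusted p = 0.441, limma), where 4.92% of genes were called in either direction. In *hox3b* RNAi it was 0.08 (95% interval -0.40 to 0.55, adjusted p = 0.873, limma), where 1.35% of genes were called. In *post2b* RNAi it was 0.13 (95% interval -0.35 to 0.60, adjusted p = 0.719, limma), where 5.06% of genes were called. The intervals reach 1.66-fold, 1.47-fold and 1.52-fold higher, so that rises of 1.5-fold in *hox3a* or *post2b* RNAi lie within them. Exact permutation p values, two-sided over 70 arrangements, were 0.514, 0.771 and 0.714 in the same order, where the smallest possible p is 0.0286.

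*hox3a* and *hox3b* RNAi differed by a log2 value of 0.18 (95% interval -0.30 to 0.65, adjusted p = 0.717, limma), where 0.474% of genes were called. *hox3a* and *post2b* RNAi differed by 0.13 (95% interval -0.35 to 0.60, adjusted p = 0.83, limma), where 2.15% of genes were called. *hox3b* RNAi was at -0.05 against *post2b* RNAi (95% interval -0.53 to 0.43, adjusted p = 0.925, limma), where 2.24% of genes were called. The exact permutation p values were 0.486, 0.771 and 0.914, and all 6 became 0.914 when adjusted over the 6 contrasts. The sign turned when a single library was left out in 4 of the 6 tested contrasts, and in *hox3a* RNAi against control and against *hox3b* RNAi it did not. Without control replicate 3, the lowest control library, the difference was -0.14 in *hox3b* RNAi and -0.095 in *post2b* RNAi. Without *post2b* replicate 1, the highest of its group, *post2b* minus control was -0.06 and *hox3b* minus *post2b* was 0.14. Without *hox3a* replicate 1 the difference between *hox3a* and *post2b* RNAi was -0.038, and without *hox3b* replicate 3 that between *hox3b* and *post2b* RNAi was 0.0038.

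Compared with these groups, *hox1* and *lox5b* RNAi also stood apart, as a description. The level in *hox1* RNAi was 0.98 higher than in *hox3a*, 1.15 higher than in *hox3b* and 1.10 higher than in *post2b* RNAi, on the log2 scale. The level in *lox5b* RNAi lay 1.53 under *hox3a*, 1.36 under *hox3b* and 1.41 under *post2b* RNAi. The standard error was 0.23 in each contrast. The *hox1* and *lox5b* libraries in these contrasts are those that chose the gene, so the contrasts add no separate support.

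**Figure D3:**
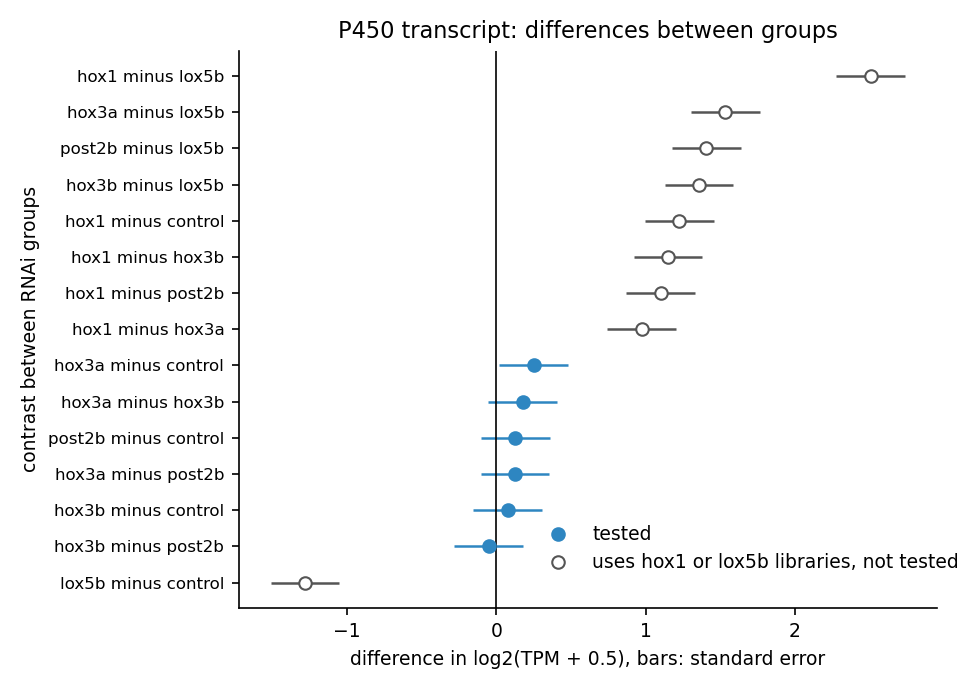
Difference of the P450 transcript in log2(TPM + 0.5) (horizontal axis) for the 15 contrasts between RNAi groups (vertical axis), with bars of 1 standard error. Open points use *hox1* or *lox5b* libraries, which chose the gene, and have no test. The 6 filled points, which were tested, lie between -0.05 and 0.25, and the open points lie at 0.98 or higher, except *lox5b* minus control at -1.28.

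The P450 transcript varied widely between pools of the same group. Its standard deviation within groups was 0.37 on the log2 scale. Among the 3316 genes with a mean TPM within 2-fold of its own, the median of this SD was 0.11, and 99.1% had a lower one. Counting error expected from the recovered reads was at most 2.59 to 6.76% of the group mean, while the measured spread was 8.64% in *hox3b* RNAi, 13.5% in *hox1* RNAi and 29.1 to 31.6% in the other 4 groups. The spread in these groups is thus larger than the counting of reads alone gives. Replicate numbers here follow the order, within each group, of the running numbers in the sample titles. Replicate 1 was the highest library in 5 of the 6 groups, *lox5b* RNAi being the exception, and replicate 3 was the lowest in 3 groups. Across all genes, libraries that share a number did not deviate together.

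**Figure D4:**
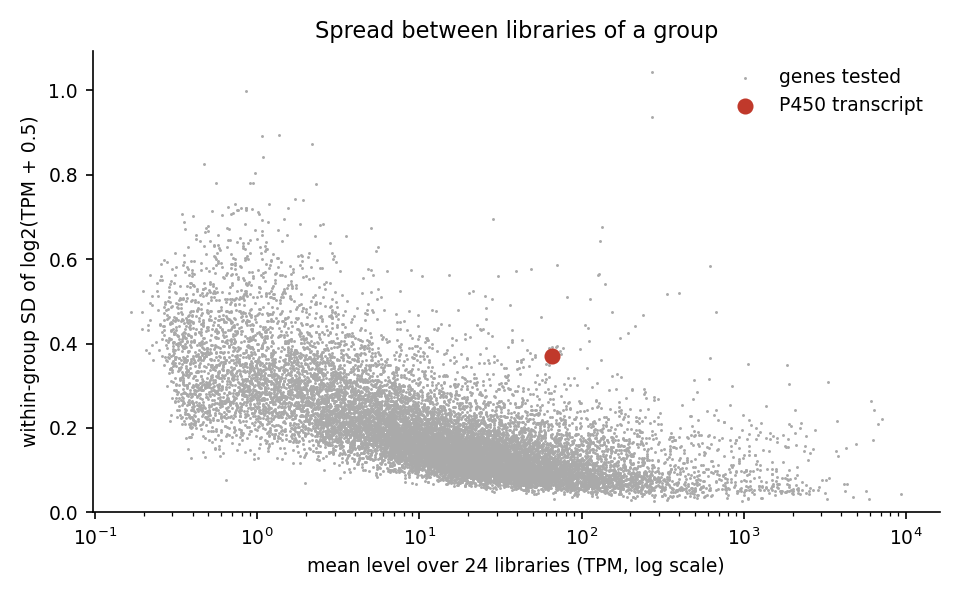
Standard deviation of log2(TPM + 0.5) within groups (vertical axis) against the mean level over 24 libraries in TPM (horizontal axis, log scale). Grey points are the 15829 genes tested. The red point is the P450 transcript, at 66.2 TPM and an SD of 0.37, above nearly all genes of like level.

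At the same cutoffs, 3 of the 15829 genes were called both higher in *hox1* RNAi and lower in *lox5b* RNAi than in control, and 0 genes showed the reverse pair of calls. Both comparisons use the same control libraries, and this count is a description. Apart from the P450 transcript, the pair of calls was found for SMESG000035325.1 and SMESG000035326.1, which were picked out after their values were seen. Their IDs are consecutive, and no product is named for either in the part of the product table used here, which may not cover them. SMESG000035325.1 had 20.6 ± 3.66 TPM in control, 45.5 ± 13.3 in *hox1* and 6.47 ± 2.85 in *lox5b* RNAi (SD, n = 4). SMESG000035326.1 was far more abundant, with 526.6 ± 82.3 TPM in control, 856.2 ± 167.8 in *hox1* and 119.8 ± 40.1 in *lox5b* RNAi (SD, n = 4).

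In *hox3a* RNAi the patterns parted. SMESG000035325.1 had 47.4 ± 9.68 TPM and SMESG000035326.1 had 1010.6 ± 205.0 TPM in *hox3a* RNAi (SD, n = 4), both with a mean above that in *hox1* RNAi. The P450 transcript, at 67.7 TPM in *hox3a* RNAi, had about the level of control there. The lowest *hox3a* library of SMESG000035325.1, 36.3 TPM, lay above its highest control library, 23.4 TPM, and the lowest *hox3a* library of SMESG000035326.1, 758.3 TPM, lay above its highest control library, 613.7 TPM. For the P450 transcript the *hox3a* and control libraries overlapped. The difference between these patterns was not tested.

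**Figure D5:**
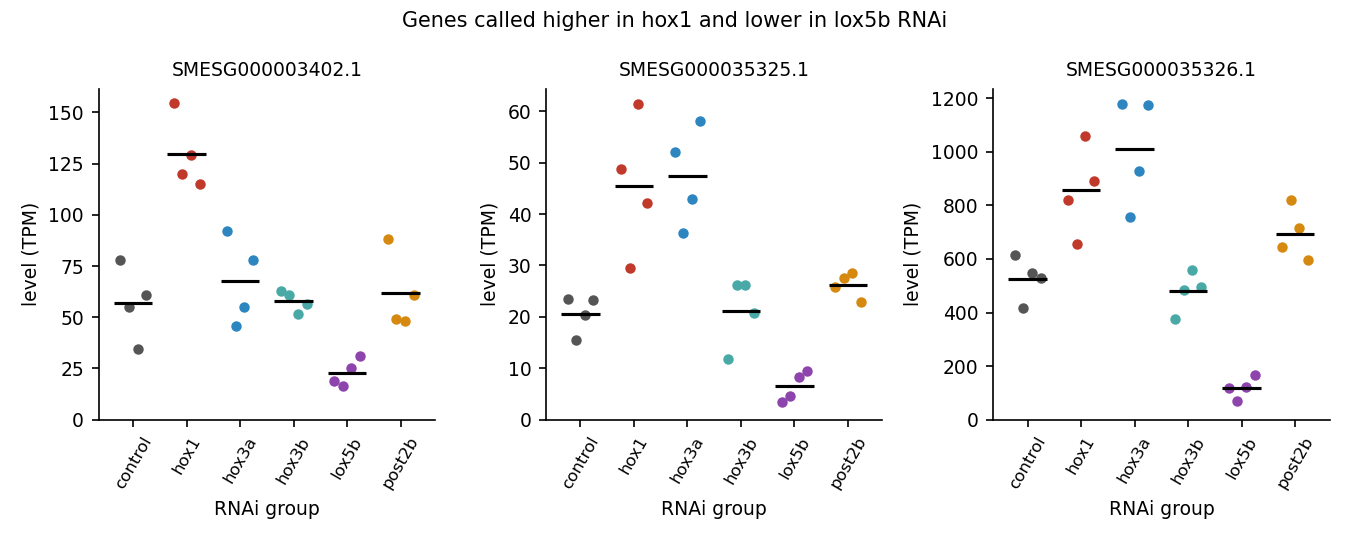
Level in TPM (vertical axes, each from 0) in every library of the 6 RNAi groups (horizontal axes) for the 3 genes called higher in *hox1* and lower in *lox5b* RNAi. Points are libraries and lines are group means. The *lox5b* libraries are the lowest in each panel, while in *hox3a* RNAi only SMESG000035325.1 and SMESG000035326.1 lie wholly above control.

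The genes whose levels followed the P450 transcript most closely over the 24 libraries were sought among 14305 other genes with a mean TPM of at least 1. Pearson's r was computed on log2(TPM + 0.5), and libraries share groups and the fixed sum of TPM, so r is a description. The highest r was 0.88, r was above 0.8 for 17 genes and above 0.9 for 0, and the median r was 0.14. The closest gene was SMESG000016757.1, with r = 0.88 over all libraries and 0.81 over deviations from the group means. It had 30.2 ± 7.42 TPM in *hox1*, 19.6 ± 3.27 in control and 11.1 ± 2.59 in *lox5b* RNAi (SD, n = 4), so its order of these groups was that of the P450 transcript, with smaller ratios. SMESG000024271.1 (r = 0.87, 0.68 over deviations), SMESG000038855.1 (0.87 and 0.46), SMESG000059878.1 (0.85 and 0.63) and SMESG000061009.1 (0.84 and 0.71) came next. All 5 had their highest mean in *hox1* and their lowest in *lox5b* RNAi. These genes were picked by an r that holds the deviations too, so the values over deviations are no separate support.

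The gene with the lowest r was SMESG000048410.1, with r = -0.82 over all libraries and -0.73 over deviations from group means. Its level was 229.6 ± 12.5 TPM in *lox5b* RNAi and 198.0 ± 3.96 TPM in *hox1* RNAi (SD, n = 4), a small difference beside that of the P450 transcript. SMESG000022384.1 (r = -0.79, -0.57 over deviations), SMESG000043600.1 (-0.78 and -0.71), SMESG000027576.1 (-0.78 and -0.18) and SMESG000069149.1 (-0.78 and -0.55) followed. Each of the 5 had its highest mean in *lox5b* and its lowest in *hox1* RNAi. No product is named for any of these 10 genes in the part of the product table used here. Names outside that part were not looked up. With Spearman's rho in place of r, 5 of the 10 were still among the 5 highest and 5 lowest, and after rescaling of TPM 4 were.

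P450 enzymes act beside other enzymes of lipid and foreign-compound metabolism. From the part of the product table used here, 40 genes in 8 lists were taken by product name for such roles. The lists are therefore not a survey of all genes with these roles. Of these, 37 passed the filter on low values. Their median log2 difference was -0.10 in *hox1* RNAi against control, where the median of all genes was -0.06, and -0.30 in *lox5b* RNAi, where it was -0.15. Against control, 0 listed genes were called higher and 2 lower in *hox1* RNAi, and 0 higher and 1 lower in *lox5b* RNAi, beside the background shares given above. The *lox5b* count rests on its stricter cutoff. It was 10, all lower, at the 1.5-fold cutoff of the other contrasts. The share of all genes called there was not counted, and cannot be under the 3.92% called lower at the stricter cutoff. The 10 therefore have no background to be read against. At the stricter cutoff the count was 3 with a pseudocount of 0.1, and 2 without control replicate 3 or without *lox5b* replicate 4. Between *hox1* and *lox5b* RNAi directly, 4 were called higher in *hox1* RNAi and 1 lower, where 5.26% of all genes tested were called higher and 1.09% lower. None of the listed genes was called both higher in *hox1* and lower in *lox5b* RNAi, as the P450 transcript was. Only 3 of all 15829 genes tested were, so the lack of such genes among 37 says nothing particular about the lists.

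Among 10 genes that detoxify peroxides, aldehydes and epoxides, of which 9 were tested, 3 were called higher in *hox1* than in *lox5b* RNAi, beside 5.26% of all genes tested. These were a pair of putative aldehyde dehydrogenases, which oxidize aldehydes to acids, and Glutathione S transferase-1, which couples glutathione to reactive compounds. Aldehyde dehydrogenase SMESG000001708.1 had 991.4 ± 66.6 TPM in control, 991.8 ± 22.1 in *hox1* and 577.2 ± 84.5 in *lox5b* RNAi (SD, n = 4). Its log2 difference between *hox1* and *lox5b* RNAi was 0.79 (standard error 0.09), and that between *hox1* RNAi and control was 0.003. Aldehyde dehydrogenase SMESG000001723.1 differed by 0.73 (standard error 0.11) and the glutathione transferase SMESG000003087.1 by 0.67 (standard error 0.11) between *hox1* and *lox5b* RNAi. All had adjusted p values of 0.000181 or lower in this contrast (limma). Their *lox5b* levels were under control and their *hox1* levels close to control, unlike those of the P450 transcript. An epoxide hydrolase (SMESG000002805.1), from a class that opens epoxides such as some P450 enzymes form, was singled out after its values were seen. It was not called in these contrasts, and its log2 difference between *hox1* and *lox5b* RNAi was 0.23 (standard error 0.08).

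Among 5 transporters of organic anions and conjugates, of which 4 were tested, 1 Multidrug resistance-associated protein 1 (SMESG000000283.1), from a family of pumps that export conjugates from cells, was called higher in *hox1* than in *lox5b* RNAi, beside the same 5.26%. It had 3.98 ± 0.29 TPM in control, 3.82 ± 0.49 in *hox1* and 1.95 ± 0.48 in *lox5b* RNAi (SD, n = 4), and the direct log2 difference was 0.83 (standard error 0.15, adjusted p = 0.000411, limma). Of 5 genes for sphingolipids and gangliosides, the Ganglioside GM2 activator (SMESG000000730.1), a cofactor in ganglioside breakdown, was lower in *hox1* RNAi, with 1458 ± 187 TPM in control, 441.4 ± 65.3 in *hox1* and 839.3 ± 174.4 in *lox5b* RNAi (SD, n = 4). Its log2 difference was -1.73 in *hox1* RNAi against control and -0.91 in *hox1* against *lox5b* RNAi (standard error 0.13 in each), opposite in sign to the P450 transcript. The study chose this gene on these samples, so its call is not independent evidence. Of 5 genes for entry into and folding in the endoplasmic reticulum, a Protein disulfide-isomerase (SMESG000001159.1), which forms disulfide bonds, was lower in both groups. It had 28.3 ± 4.44 TPM in control, 10.3 ± 1.19 in *hox1* and 8.59 ± 1.34 in *lox5b* RNAi (SD, n = 4). Its mean was also under control in *hox3a* (12.7 ± 5.55), *hox3b* (15.3 ± 3.32) and *post2b* RNAi (13.5 ± 2.49). The lower level was thus not particular to *hox1* and *lox5b* RNAi.

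In the remaining lists 0 genes were called at the cutoffs of each contrast. A Lipase (SMESG000002840.1) and an O-acyltransferase (SMESG000000988.1) each had a log2 difference of -0.75 in *lox5b* RNAi against control. They passed 1.5-fold and the adjusted p cutoff there, but not 2-fold. Of 10 enzymes of lipids and fatty acids, the most abundant by the mean over all 24 libraries was Phospholipase D3 (SMESG000003419.1), with 85.6 ± 5.75 TPM in control, 82.9 ± 4.90 in *hox1* and 66.8 ± 4.50 in *lox5b* RNAi (SD, n = 4). The median log2 difference of the 10 was 0.26 between *hox1* and *lox5b* RNAi, where that of all genes was 0.08. Of 2 other monooxygenases, Tryptophan 5-hydroxylase 1 (SMESG000000522.1), an enzyme of serotonin synthesis, had 13.2 ± 2.67 TPM in control, 11.4 ± 1.23 in *hox1* and 9.37 ± 2.40 in *lox5b* RNAi (SD, n = 4). Of 2 genes for iron storage and porphyrin binding, the Translocator protein (SMESG000002991.1) of the outer mitochondrial membrane stood at 134.5 ± 2.25 TPM in control, 134.9 ± 11.9 in *hox1* and 147.2 ± 5.65 in *lox5b* RNAi (SD, n = 4). A gene resembling the cysteinyl leukotriene receptor 2 (SMESG000002195.1), from a class of receptors for oxidized fatty acids, had a mean of 0.16 TPM and did not pass the filter.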

How the data were processed

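Libraries of polyadenylated RNA were sequenced as single reads. Per the labels and the study's methods, the authors demultiplexed with bcl2fastq2 version 2.20 and used STAR both to align to the smed_dd_g4 assembly and to count reads in Smes_hv_v1 models. The TPM values deposited by the authors sum to 1000000 in each library, and the tool that made TPM is not given in the sources used here. Supplementary columns with the authors' own fold changes and p-values were not used.

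TPM were used as log2(TPM + 0.5), where a difference understates the change of low genes. Genes that reached 0.5 TPM in 4 or more of 24 libraries were tested, with all libraries in 1 model, in limma 3.58.1 (R 4.3.3, eBayes with trend), two-sided, with Benjamini-Hochberg adjustment over 15829 genes. A call needed 1.5-fold and an adjusted p under 0.05, or 2-fold and 0.01 for *lox5b* against control. The 9 contrasts that use *hox1* or *lox5b* libraries, whose values chose the gene, got no test. The steps were tested on simulated data.

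The size of 1 read in a library, relative to control replicate 1, was the commonest ratio of TPM over genes. The smallest whole numbers in proportion were taken as reads, up to a common factor, and 19466 of 19467 genes gave whole numbers, within 0.01. Scripts ran in Python 3.11.15.

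The gene and the lists were chosen with earlier results of these data known. Named genes were the P450 transcript, listed genes called in *hox1* or *lox5b* contrasts or else the most abundant of a list, and the 5 highest and 5 lowest r. A pair of genes, an epoxide hydrolase, a lipase and an O-acyltransferase were picked after their values were seen. Residuals of same-numbered libraries correlated at -0.28 to 0.30 over 60 pairs (median 0.002), and those of other numbers at -0.31 to 0.35. Across all genes, numbers thus do not pair the samples. For the P450 transcript alone, replicate 1 was the highest in 5 groups, and the replicate block lowered the standard error from 0.23 to 0.19. No protein or transcript sequence of the gene was used here.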

Additional observations from a re-analysis of the deposited data

How the results depend on the processing

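The P450 differences were recomputed 246 times, with pseudocounts of 0.1 and 1, no filter, a mean TPM of at least 2, rescaled TPM, no trend, only the groups compared, the replicate block, each library left out and, where tested, an exact permutation test. In 240 cases the direction was the same and, where tested, the side of the cutoff. In the 144 without a test the value moved by less than 1 SD. Leaving out a library could not move it further than that, so this is no evidence of stability there. The filters, the trend, the choice of groups, the replicate block and the permutation test leave a difference of group means unchanged. Under these settings the direction could not turn, and the tested differences stayed under 1.5-fold, so that no call was possible. Agreement in direction or in the side of the cutoff is therefore no evidence there. The tested contrasts were called in 0 cases. The sign turned in 6 cases, each with a library left out, and the cause was not tested. Over left-out libraries, *hox3b* minus control ranged from -0.14 to 0.25, *post2b* minus control from -0.095 to 0.30, *hox3a* minus *post2b* from -0.038 to 0.31 and *hox3b* minus *post2b* from -0.15 to 0.14. With the replicate block, the P450 difference between *hox3a* RNAi and control stayed at 0.25 with a standard error of 0.19 (adjusted p = 0.338, limma). The block could add no call of the P450 transcript, as the tested differences stayed under 1.5-fold. Listed genes called in *lox5b* RNAi against control were 1, and 3 with a pseudocount of 0.1, 10 at 1.5-fold and an adjusted p under 0.05, and 1 to 2 with each library left out. The share of all genes called in this contrast at 1.5-fold was not counted, so the 10 have no background to be read against. Of the 10 genes most like or opposite to the P450 transcript, 5 were shared with Spearman's rho and 4 after rescaling. With 4 pools per group, a rise of 1.5-fold in *hox3a* or *post2b* RNAi lies within the intervals.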
